A study of Homo sapiens with 6 samples.

Results

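The comparison set WM-266.4 melanoma cells given a non-targeting siRNA (siCTR) beside the same cells given the transfection reagent without oligonucleotide (NO), that is, 4 of the 6 arrays of the series. The 2 repeat arrays of each group were averaged, and a gene was kept when the mean signal of the siCTR or the NO pool was above 458.4, the 75th percentile of all values. This left 7949 bright genes of 19775 with a probe set of their own, 7547 of them bright in both pools. A difference is called even when both arrays of either pool had higher signals than both arrays of the other pool. An even difference of at least 1.5-fold was called higher or lower, and those under 2-fold are the small but even differences described here by function.

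Small interfering RNAs are short duplexes that are loaded into Argonaute proteins and guide the cleavage of matching transcripts. Non-targeting duplexes are designed to match no transcript of the cell, and they serve as the control for what the duplex and its delivery do apart from the target. Duplexes can still act through partial, microRNA-like matches, through sensors of foreign nucleic acid that switch on interferon genes, and by occupying the RNA interference machinery. Cationic lipids carry them into the cell through endosomes, so uptake, membrane lipid and lysosome genes are also of interest in such a pair of controls.

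The series measured gene expression in WM-266.4, an established line from a metastatic melanoma, after knock-down of PIR, which encodes the nuclear protein pirin. Cells of the siCTR group were given 200 pmol of a non-targeting pool of 4 duplexes with the lipid reagent Oligofectamine in medium lacking serum, and NO cells were given the reagent alone. The third group, siPIR, was given 4 duplexes against PIR in the same way and is quoted only for the level of named genes. All cells had been seeded 24 h earlier and were collected 72 h after transfection. For each group, RNA of 3 extractions was mixed, and 2 arrays (Affymetrix HG-U133 Plus 2) were hybridised with the labelled target. A group thus stands for 1 RNA pool of 1 cell line, the arrays are repeat hybridisations, and their spread covers hybridisation error only. With 1 pool per group the conditions cannot be tested, and no p-value is given. The calls are a rule of size and evenness.

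PIR was not targeted in either group and had signals of 13544 and 13179.9 in siCTR and 13990.2 and 14153 in NO, against 392.3 and 381.5 in siPIR. The siCTR and NO arrays did not overlap but differed by only -0.07 (log2), so PIR was near one level in both controls. All 8 melanocyte markers with a probe set of their own, among them MITF, TYR, MLANA and SOX10, were bright, with a summed signal of 97687 to 105606 over the 4 arrays. Of 12 fibroblast markers 3 were bright (COL1A2, POSTN and FAP), of 11 keratinocyte markers 1, of 10 endothelial markers 1 and of 11 leukocyte markers 0. The median signal of the arrays was 64.2 to 74.8, and the signal at the 3' end of ACTB was 1.23 to 1.27 times that at its 5' end on these arrays, as a gauge of RNA integrity. Control transcripts of bacterial origin set the pools apart. The 12 probe sets for the poly-A transcripts dap, lys, phe and thr, which are added to RNA before labelling, were lower in siCTR, with a median log2 difference of -1.36 (-1.75 to -1.18), or 2.56-fold. The 9 probe sets for bioB, bioC, bioD and cre, added at hybridisation, had a median of -0.05 (-0.15 to 0.05). In siPIR the poly-A controls differed from NO by a median of -0.39. The sources used here do not state the amounts added, and the part of this shift in the gene differences was not tested. Every array is scaled to the same total signal, so each difference below is relative to that total. In RNA of whole cultures, a change in the share of cells in some state and a change of RNA per cell cannot be told apart.

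**Figure D1:**
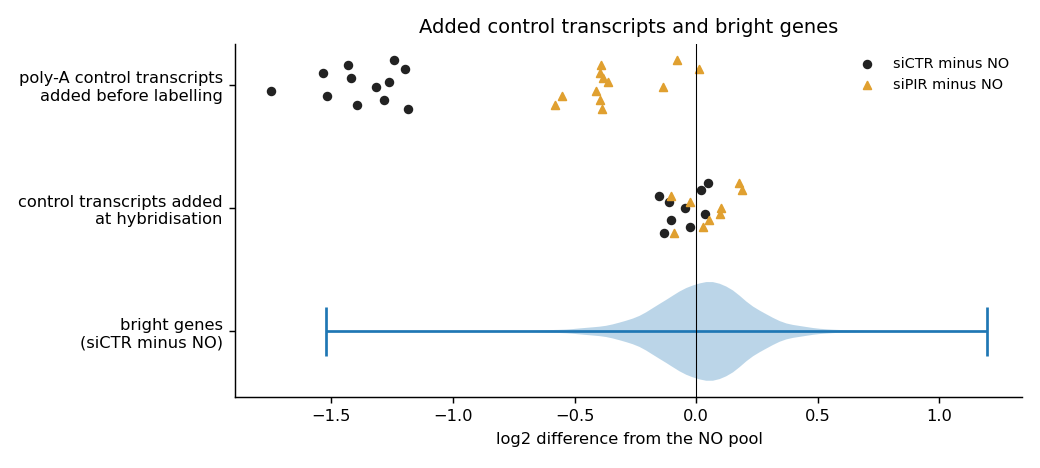
Log2 difference from the NO pool (horizontal axis) of control transcripts added before labelling (12 probe sets) and at hybridisation (9 probe sets), as black dots for siCTR and yellow triangles for siPIR, with the spread of the 7949 bright genes between siCTR and NO as a shaded shape whose bars mark its ends. The poly-A controls of siCTR lie between -1.75 and -1.18, while the controls added at hybridisation lie near 0.

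The 2 control pools were close. Over bright genes the median log2 difference, siCTR minus NO, was 0.03 with an SD of 0.21 across genes, and the correlation across genes of an siCTR array with an NO array was 0.984 to 0.986, against 0.993 and 0.994 for duplicates. Even differences of any size were found for 2872 genes higher in siCTR (36.1%) and 1923 lower (24.2%). Most were minute: 70.7% of the even differences were under 1.2-fold and 96.9% under 1.5-fold. At 1.2-fold or more, 818 genes were higher (10.3%) and 587 lower (7.38%). At 1.5-fold or more, 75 were higher (0.944%) and 72 lower (0.906%), and of these 73 (0.918%) and 69 (0.868%) were under 2-fold. At 2-fold or more, 2 were higher (0.0252%) and 3 lower (0.0377%). For scale on single arrays, 49 bright genes (0.616%) were at least 1.5-fold apart, in either direction, between the 2 arrays of siCTR. Between those of NO there were 40 (0.503%). Between 1 siCTR array and 1 NO array there were 189 to 260 (2.38% to 3.27%).

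All bright genes whose pool means were 1.5-fold apart also had arrays that did not overlap, so the evenness rule removed none at this size. In 20 of the genes called higher and 29 of those called lower, all 4 pairs of an siCTR and an NO array were at least 1.5-fold apart. Of the 147 called genes, 46 were bright through 1 pool only, and 51 higher and 50 lower genes were called among those bright in both pools. Where each array was centred on the median of the bright genes, the split of 75 against 72 became 53 against 98, or 35.1% higher in place of 51.0%. With the first NO array left out, 110 genes were called lower, the widest departure when single arrays were left out. Genes at the edges of the rule were SLC44A2 (higher pool mean 458.9) just inside and TBXA2R (458.3) just outside the bright set, and IL17B (0.59) and SOX8 (0.58) on either side of 1.5-fold.

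**Figure D2:**
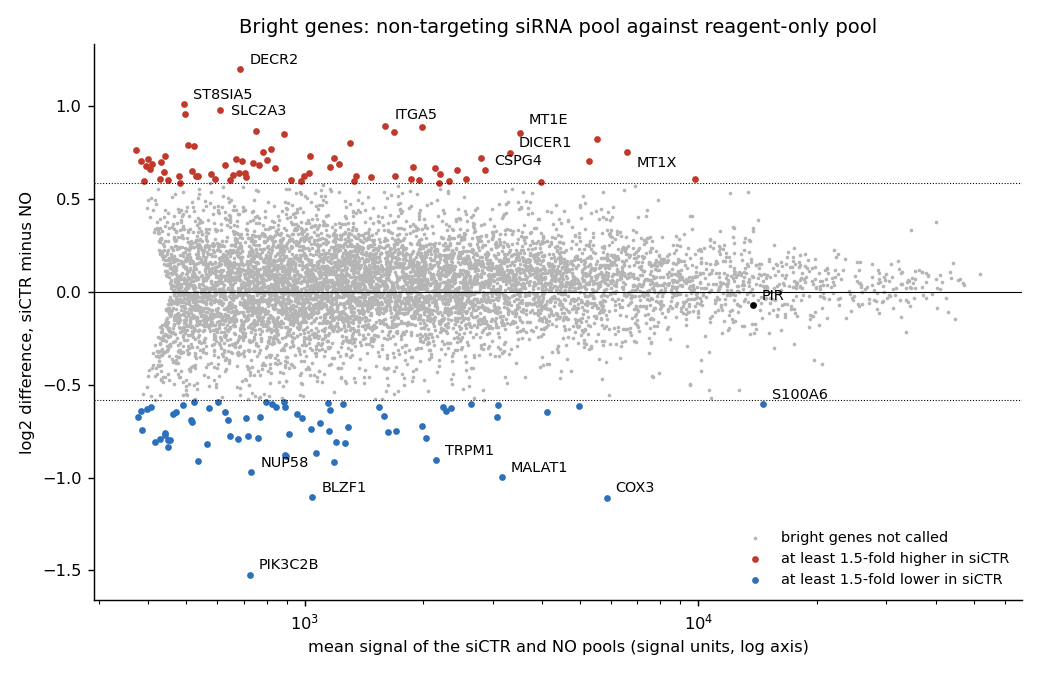
Log2 difference of the pool means, siCTR minus NO (vertical axis), against mean signal of the 2 pools (horizontal log axis, signal units) for the 7949 bright genes. Dotted lines mark 1.5-fold; 75 genes lie above (red) and 72 below (blue), 5 of them at least 2-fold apart, and PIR is shown in black.

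Of the 5 genes at least 2-fold apart, 2 were higher in siCTR. DECR2, a peroxisomal reductase of unsaturated fatty acid breakdown, had signals of 737 and 1191 in siCTR and 449 and 368 in NO, 2.29-fold higher (range of the log2 difference over the 4 array pairs 0.71 to 1.68). The arrays did not overlap, but the siCTR duplicates were themselves far apart. ST8SIA5, a sialyltransferase of ganglioside synthesis, had 733 and 593 in siCTR and 365 and 289 in NO (1.01; 0.69 to 1.33). Values in brackets here and below give the log2 difference, siCTR minus NO, and, after a semicolon, its range over the array pairs. Both genes were bright in the siCTR pool only.

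The 3 genes at least 2-fold lower were PIK3C2B, COX3 and BLZF1. PIK3C2B, a class II phosphoinositide kinase, showed the widest difference of all bright genes, with 444 and 308 on the siCTR arrays against 1116 and 1033 in NO (-1.52; -1.84 to -1.21); it was bright in the NO pool only. COX3, the mitochondrially encoded subunit III of cytochrome c oxidase, had 3669 and 3698 against 7108 and 8901 (-1.11; -1.28 to -0.94); its probe set is marked as shared between genes, so the gene is uncertain. BLZF1, a golgin of the Golgi apparatus, had 700.2 and 621 against 1320.4 and 1538 (-1.11; -1.30 to -0.91). In all 3 the lowest NO array was well above the highest siCTR array. A further bright probe set of BLZF1 differed by -0.65. With single arrays left out, 5 to 7 genes were at least 2-fold lower. Leaving out the first siCTR array gave 7, the second 5, and either NO array 6.

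Among small differences, SLC2A3 was the most even of the higher genes. It encodes the glucose transporter GLUT3. Its signals were 810.2 and 813 in siCTR and 412 and 408 in NO, a difference of 0.98 (0.96 to 0.99), and its 2 other bright probe sets differed by 0.63 and 0.80, also without overlap. SLC2A3 was bright in siCTR only, and all its probe sets are marked as shared between genes or transcripts. The duplicates nearly coincided. The genes named here were ranked by their closest array pair, which favours close duplicates and a clear gap, so neither adds support. ITGA5, the alpha chain of the fibronectin receptor, had 2128 and 2041 against 1176 and 1071 (0.89; 0.79 to 0.99). Both siCTR arrays lay far above both NO arrays. CYGB, the oxygen-binding globin cytoglobin, had 1123 and 1156 against 647 and 617 (0.85; 0.79 to 0.90). PUDP, a phosphatase acting on pseudouridine nucleotide, had 2202 and 2147 against 1278 and 1118 (0.86; 0.75 to 0.97). PIGS, a subunit of the transamidase that attaches GPI anchors to proteins, had 2342 and 2818 against 1459 and 1317 (0.89; 0.68 to 1.09). None of these overlapped, as a call requires, and in PIGS the siCTR arrays differed from each other more than in CYGB.

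ENTPD6, a nucleoside diphosphatase, had 1694 and 1609 in siCTR and 1011 and 885 in NO (0.80; 0.67 to 0.93). CCDC124 had 1002 and 936 against 467 and 602 (0.86; 0.63 to 1.09). All of these arrays stayed on their own side, as a call requires. PCNX2, a membrane protein of the pecanex family, had 460.2 and 482 against 288 and 263 (0.76; 0.67 to 0.86), but with the mean over its probe sets the difference turned to -0.11. FAM149A had 672 and 655 against 411 and 358 (0.78; 0.67 to 0.90), and turned to -0.23 where probe sets marked as shared between genes or transcripts were left out. The metallothioneins MT1E and MT1X also belong to these genes and are described with their family.

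The most even of the lower genes was NUP58, a component of the nuclear pore's central channel. It had 495 and 492 in siCTR and 972 and 971 in NO (-0.97; -0.97 to -0.97), and its other bright probe set differed by -0.87. MALAT1, an abundant nuclear long noncoding RNA, had 2188 and 2039.6 against 4067 and 4389 (-0.998; -1.10 to -0.89), a value just short of 2-fold. Its 6 other bright probe sets were all lower without overlap, by -0.12 to -1.75, and with shared probe sets left out the difference was only -0.29. The size of the MALAT1 difference thus varied widely with the probe set, while its direction did not. TRPM1, a cation channel of melanocytes, had 1506 and 1481 against 2704 and 2911 (-0.91; -0.97 to -0.84). CLDN1, a claudin of tight junctions, had 871 and 959.8 against 1576 and 1645 (-0.81; -0.91 to -0.71), and its other bright probe set differed by -1.74. SDHAF3, an assembly factor of succinate dehydrogenase, had 812 and 821 against 1676 and 1427 (-0.92; -1.04 to -0.79). In none of them did the pools overlap, which the call requires.

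CRCP, a subunit of RNA polymerase III, had 650.3 and 601 in siCTR and 1068 and 1251 in NO (-0.88; -1.05 to -0.71). TMEM160 had 780.1 and 728 against 1319 and 1445 (-0.87; -0.98 to -0.75). ARSK, a lysosomal sulfatase, had 660.1 and 691 against 1163 and 1142 (-0.77; -0.81 to -0.72). In these 3 all duplicates lay close beside the gap between pools. The remaining 4 were bright in the NO pool only. FCF1, a factor of small ribosomal subunit processing, differed by -0.79, FBXL17, an F-box protein, by -0.80, and EHHADH, a peroxisomal enzyme of fatty acid oxidation, by -0.76. MIR100HG, a host transcript of microRNAs, differed by -0.77, but by only -0.0047 with the mean over its probe sets.

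The 29 ranked genes, MT1E and MT1X included, were called with each of the 4 arrays left out in turn. This was fixed by the ranking on the closest array pair. Every array pair of these genes was at least 1.5-fold apart, so it is no sign of stability. With the mean over all probe sets of a gene in place of its strongest, 16 of the 29 were no longer called, either because the difference shrank or because the mean signal was no longer bright. Without probe sets marked as shared, 8 were not called, and 11 were bright in 1 of the 2 pools only. Other probe sets of the called genes did not choose them, but they read the same RNA pools. They were kept when bright in either pool, so some passed only through the pool where they were higher. Of 75 genes called higher, 20 had another bright probe set, and 24 of these 30 probe sets (80.0%) were higher in siCTR, 20 of them without overlap. Of 72 genes called lower, 23 had another, and 30 of 34 (88.2%) were lower, 28 without overlap. Over all bright genes, 60.0% of other probe sets had the sign of the chosen one, and 38.8% did so without overlap. Most of those genes were under 1.5-fold, so this background is not matched to the called genes in size of difference. At 1.5-fold, 8 of the 30 and 11 of the 34 were past the size as well.

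**Figure D3:**
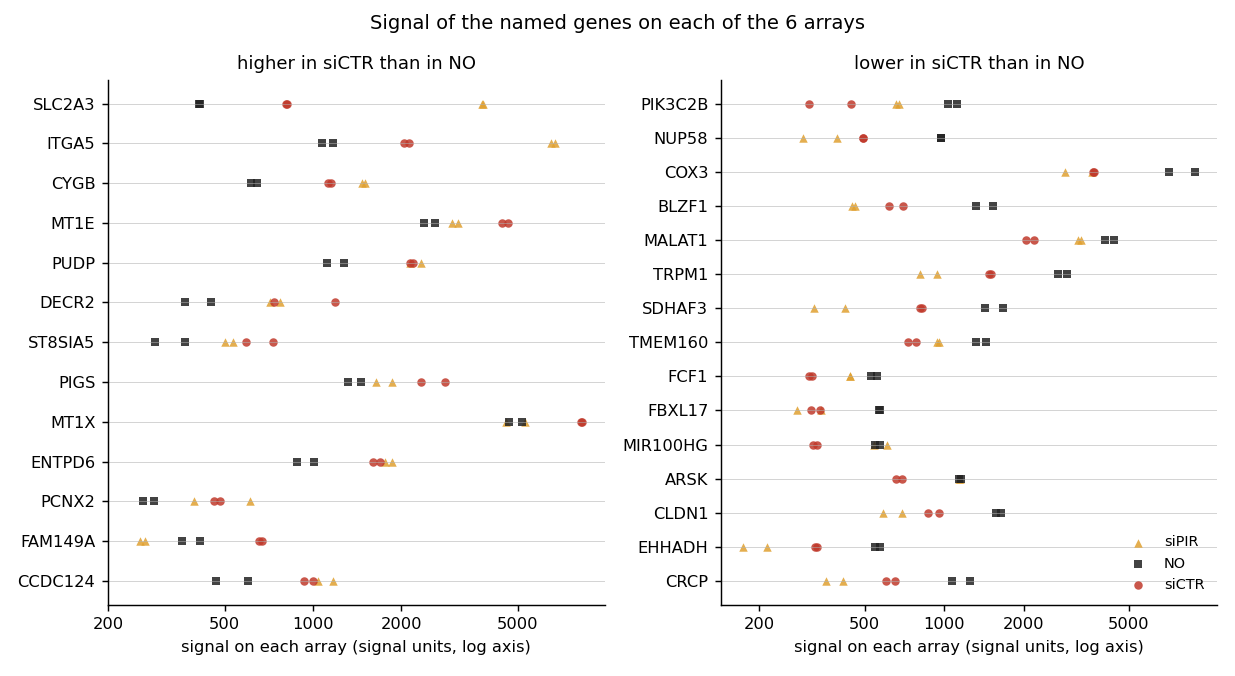
Signal on each array (horizontal log axis, signal units) of 28 of the 29 genes at least 2-fold apart or with the most even differences under 2-fold. The siCTR arrays are red dots, the NO arrays black squares and the siPIR arrays yellow triangles. In no gene do the siCTR and NO arrays overlap, which the choice of genes requires. The siPIR arrays of SLC2A3 (3786 and 3808) lie far above both.

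The siPIR pool had also received siRNA. Its comparison with NO shares the NO arrays with the one described here, so values are only set side by side. SLC2A3 had 3808 and 3786 on the siPIR arrays and ITGA5 had 6702 and 6501, both far above siCTR. TRPM1 had 813 and 943, below siCTR, while MALAT1 had 3296 and 3201, between siCTR and NO. FAM149A had 268 and 256, below both controls.

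The machinery of RNA interference held 1 of the called genes. DICER1 encodes the nuclease that cuts microRNA precursors and long double-stranded RNA into short duplexes. It had signals of 4070.4 and 4228 in siCTR and 2143 and 2847 in NO (0.75; 0.52 to 0.98), with 5602 and 5621 in siPIR. The NO arrays were well apart from each other, and without the first NO array the difference was 0.54, short of the size of a call. Its 2 other bright probe sets were higher by 0.68 and 0.90 without overlap, although the mean over all its probe sets, dim ones included, gave 0.22. Of 17 bright genes of this machinery, 5 were evenly higher and 4 evenly lower. These are shares of 29.4% and 23.5%, beside 36.1% and 24.2% over all bright genes, and the median was 0.04 beside 0.03. The 36.1% and 24.2% are the background for every list below. AGO4, an Argonaute, was -0.45 (731 and 534 against 899 and 811). TNRC6B, a GW-repeat partner of Argonautes in silencing, was -0.41 (485 and 478 against 633 and 646). MOV10, an RNA helicase of silencing complexes, was 0.37. AGO2, the slicing Argonaute, differed by only -0.16 and DROSHA, the nuclear microRNA processor, by 0.15. The members therefore lay on both sides.

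Sensors of nucleic acid and interferon genes likewise did not move as a group. Of 11 bright sensors, 4 were evenly higher (36.4%) and 3 lower (27.3%), near the shares over all bright genes, with a median of 0.02. STING1, the adaptor that signals from cytosolic DNA sensing, was higher with 853 and 706 against 520.3 and 498 (0.60; 0.44 to 0.77), the 1 call of the list. It missed the size of a call without the first siCTR array (0.47) and without the second NO array (0.57). DDX60, an interferon-inducible helicase, was -0.57 (581 and 649.7 against 976 and 860.3), EIF2AK2, the kinase PKR that binds double-stranded RNA, was -0.46 (uncertain probe set), and OAS3, an oligoadenylate synthetase, was -0.33 with arrays that overlapped. IFIH1, the RNA sensor MDA5, was -0.21, also with overlap.

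Of 26 bright interferon-stimulated genes, 5 were evenly higher (19.2% beside 36.1% of all bright genes) and 9 evenly lower (34.6% beside 24.2%). Their median was -0.02, and 0 were called at 1.5-fold. IFI6 was -0.47 (319 and 405 against 499 and 504) and HERC5, a ligase that attaches ISG15, was -0.35. MX1, an antiviral GTPase, was 0.44, from 584 and 509 against 479 and 334, and SAMD9L was 0.33. IFIT1 (-0.26) and IFIT2 (-0.24), both classic interferon-induced proteins, were slightly lower. Of 7 bright NF-kB targets and inflammatory factors, 5 were evenly higher (71.4%) and 1 lower (14.3%), beside 36.1% and 24.2% of all bright genes. Their median was 0.11, with 0 calls. ICAM1, an adhesion molecule, had 4558 and 4381 against 3089 and 3086 (0.53), and the chemokine CXCL8 had 1812 and 1438 against 1021 and 1210.5 (0.54; uncertain probe set). PTX3, a secreted pattern recognition protein, went the other way (-0.37), and NFKBIE, an inhibitor of NF-kB, was 0.17.

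Stress programmes showed small shifts. In the list of unfolded protein and amino acid stress genes, 27 were bright; 15 were evenly higher (55.6%) and 5 lower (18.5%), with a median of 0.06. CALR, a calcium-binding chaperone of the endoplasmic reticulum, was the 1 call, with 2793 and 2807 against 1826 and 1877 (0.60; 0.57 to 0.62; uncertain probe set). It lay at the edge of the size: without the first NO array it was 0.58 and without shared probe sets 0.29, while its other bright probe sets were all higher. DNAJB9, a chaperone cofactor, was 0.44, VLDLR, a lipoprotein receptor, was 0.42, and DNAJC3, an inhibitor of PERK and PKR, was -0.46 with 2950.5 and 3151 against 4125 and 4274. The element TGATGNAA of amino acid response genes was searched on either strand of the 250 bases before the start. It was found in 2 of 24 bright members with a window (8.33%), against 3.14% of all promoters, whether of bright genes or not. These were HERPUD1 (-0.10, evenly lower) and ASNS (-0.05, arrays overlapping), so 0 members with it were evenly higher. The median was -0.07 with the element and 0.09 without it. Of 23 bright p53 targets, 11 were evenly higher (47.8%) and 6 lower (26.1%), with a median of 0.08 and 0 calls. The list was led by TRIAP1 (0.41), the death receptor FAS (0.40), SESN1 (0.35) and PHLDA3 (0.27). CDKN1A, the cell cycle inhibitor p21, had 4200.1 and 4228 against 3456 and 3568 (0.26), an even but slight difference.

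Antioxidant genes and chaperones were close to level. Of 18 bright NRF2 targets, 5 were evenly higher (27.8%) and 7 lower (38.9%), with a median of 0.01 and 0 calls. Furthest from 0 were ME1 (0.33), SRXN1 (0.31), TXN (-0.19) and CAT (0.17). Of 16 bright heat shock genes and chaperones, 3 were evenly higher (18.75%) and 5 lower (31.25%), with a median of -0.02 and 0 calls. CHORDC1, an HSP90 cochaperone, was -0.31, the mitochondrial chaperonin HSPE1 was -0.23, HSF1, the master regulator of the heat shock response, was 0.28, and HSPB8 was -0.14 with overlap.

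Genes of cholesterol synthesis and uptake were mostly a little higher in siCTR. Of 20 bright members, 13 were evenly higher (65.0% beside 36.1% of all bright genes) and 2 lower (10.0% beside 24.2%), the median was 0.21 beside 0.03, and 0 were called at 1.5-fold. The median was 0.12 with the mean over the probe sets of each gene. The differences were alike in size and small. NPC1, which exports cholesterol from lysosomes, had 1897 and 1810.1 against 1508 and 1469.6 (0.31). IDI1, an isomerase of isoprenoid synthesis, had 3864 and 3967 against 3248 and 3123 (0.30; uncertain probe set). MSMO1, a sterol demethylating oxidase, had 3871 and 4042 against 3230.5 and 3291 (0.28). DHCR7, the last enzyme of the pathway, was 0.31 but its arrays overlapped. SQLE, the squalene epoxidase, was 0.27 and INSIG1, a sterol-sensing brake of the pathway, 0.26. SREBF2, the transcription factor that drives the pathway, had 978 and 962 against 803 and 832 (0.24), while ABCA1, an exporter of cholesterol, was -0.11. In siPIR, SREBF2 had 283 and 351 and MSMO1 1906 and 1734, both below NO.

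The sterol element TCACNCCAC, searched on both strands of the 250 bases before the RefSeq start (GRCh38.p14), was found before 1 of the 18 bright cholesterol genes with a window (5.56%), against 0.883% of 35116 promoters. That gene is SREBF2 itself, and its window is shown with the element in capitals.
SREBF2 (chr22:41832855-41833104, plus strand): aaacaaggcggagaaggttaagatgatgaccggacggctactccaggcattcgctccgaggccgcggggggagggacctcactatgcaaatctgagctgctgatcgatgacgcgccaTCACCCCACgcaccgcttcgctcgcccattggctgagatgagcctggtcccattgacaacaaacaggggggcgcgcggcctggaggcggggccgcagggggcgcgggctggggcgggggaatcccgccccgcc
The element so spelled is strict, and no match in the other windows says only that these letters are not there. The share over all promoters includes genes that were not bright.

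Fatty acid genes were mixed. Of 18 bright members, 9 were evenly higher (50%) and 4 lower (22.2%), with a median of 0.09. FADS2, a desaturase of polyunsaturated fatty acids, was the 1 call, with 1018 and 976 against 562 and 657 (0.71; 0.57 to 0.85). SREBF1, the transcription factor of the pathway, had 2359 and 1729.6 against 1501 and 1405 (0.47). The carnitine palmitoyltransferase CPT1A was 0.35, and ACSL4 and ACSL1, which activate fatty acids, were lower (-0.38 and -0.32).

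Uptake and lysosome genes had no call. Of 30 bright endocytosis and endosome genes, 18 were evenly higher (60.0%) and 6 lower (20%), with a median of 0.12, which turned to -0.02 where shared probe sets were left out. EEA1, an early endosome tether, was 0.35, FLOT1, a lipid raft protein, 0.33 (uncertain probe set), CLTB, a clathrin light chain, 0.33, and DNM2, the GTPase that cuts vesicles from the membrane, -0.31. RAB5A, a GTPase of early endosomes, had 7743 and 8117 against 6464 and 6796 (0.26), with no overlap. Of 23 bright lysosome and autophagy genes, 10 were evenly higher (43.5%) and 6 lower (26.1%), with a median of 0.05. MCOLN1, a lysosomal calcium channel, was 0.35, the protease CTSL 0.27, the autophagy factor BECN1 -0.25 and the proton pump subunit ATP6V0D1 -0.21.

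**Figure D4:**
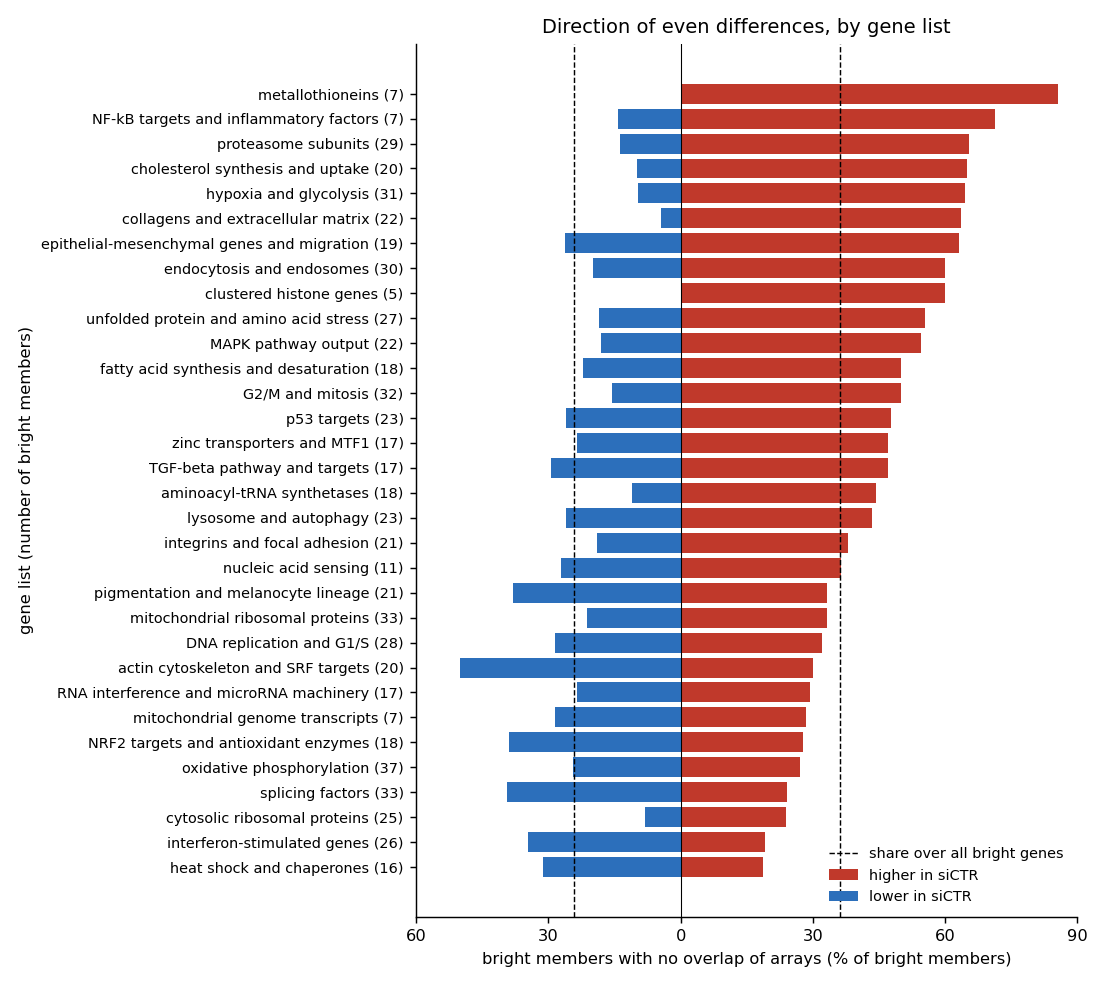
Share of the bright members of each gene list (number in brackets) whose siCTR and NO arrays did not overlap, with members lower in siCTR to the left (blue) and higher to the right (red), as percent of bright members. Dashed lines mark the shares over all bright genes (24.2% lower and 36.1% higher); cholesterol genes reach 65.0% higher and interferon-stimulated genes 19.2%.

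Of 31 bright hypoxia and glycolysis genes, 20 were evenly higher (64.5%) and 3 lower (9.68%), and the median was 0.11. At least 1.2-fold higher were 10 (32.3% beside 10.3% of all bright genes), the most of any list by count, and 1 was lower. That share was 31.8% in collagen and matrix genes and 29.4% in TGF-beta genes. It was above that of the hypoxia list in the metallothioneins, a list drawn up later (85.7%). The same held for the 3 bright fibroblast markers (33.3%) and the 1 bright endothelial marker (100%). SLC2A3, bright in siCTR only, was the 1 call. CA12, a carbonic anhydrase of the cell surface, had 8580.5 and 7866 against 5309 and 5766 (0.57; 0.45 to 0.69), and its 4 other bright probe sets were all evenly higher. BNIP3, a mitophagy receptor induced by low oxygen, had 6493 and 7048 against 4729.7 and 4599.6 (0.54). ENO2, the neuronal enolase, had 1846 and 2063 against 1484 and 1246 (0.52). The pools were clear of each other in all of these, with the widest duplicate spread in ENO2. P4HA2, a collagen hydroxylase, was 0.45 and VEGFA, the vascular growth factor, 0.40. All of these are known targets of the hypoxia-inducible factors. So are the glycolytic enzymes LDHA (0.06) and PGK1 (0.00), whose arrays overlapped, as did those of GAPDH (0.05). HIF1A, the factor's own subunit, was -0.03. HK2, a hexokinase, had 1685 and 1999 against 2136 and 2574 (-0.35) and the phosphofructokinase regulator PFKFB3 was -0.25, both below NO.

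The core of the hypoxia response element, ACGTG or GCGTG on either strand, was in the 250 bases before the start of 18 of 27 bright members with a window (66.7%), against 43.2% of all 35116 promoters. Members with it had a median difference of 0.11 and those without it 0.08. The promoters set beside the list include those of genes that were not bright, so the shares cover unlike sets. The windows of the 3 genes with the largest differences after SLC2A3 are shown 5′ to 3′ along the gene (RefSeq, GRCh38.p14), with each match in capitals; a match on the opposite strand reads CACGT or CACGC.
CA12 (chr15:63381847-63382096, minus strand): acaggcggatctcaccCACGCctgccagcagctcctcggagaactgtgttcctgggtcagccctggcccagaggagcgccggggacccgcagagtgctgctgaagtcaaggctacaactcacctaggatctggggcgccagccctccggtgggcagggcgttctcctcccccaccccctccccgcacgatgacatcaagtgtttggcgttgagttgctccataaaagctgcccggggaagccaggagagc
BNIP3 (chr10:131981924-131982173, minus strand): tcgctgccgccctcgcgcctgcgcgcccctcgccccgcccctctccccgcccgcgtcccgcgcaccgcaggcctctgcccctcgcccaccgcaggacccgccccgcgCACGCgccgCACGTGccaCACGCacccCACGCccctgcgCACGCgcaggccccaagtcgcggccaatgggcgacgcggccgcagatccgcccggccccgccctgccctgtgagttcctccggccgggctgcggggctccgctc
ENO2 (chr12:6914330-6914579, plus strand): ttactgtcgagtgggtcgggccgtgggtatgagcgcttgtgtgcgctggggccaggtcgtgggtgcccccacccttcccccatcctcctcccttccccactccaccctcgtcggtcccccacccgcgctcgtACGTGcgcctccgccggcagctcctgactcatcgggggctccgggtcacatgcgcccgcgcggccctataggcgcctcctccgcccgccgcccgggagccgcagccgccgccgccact
BNIP3 held 6 matches, counted on both strands, and CA12 and ENO2 1 each. Genes that were lower or level held matches too, among them HK2 (-0.35, 3 matches), LDHA (0.06, 5 matches) and PGK1 (0.00, 3 matches). SLC2A3, P4HA2 and VEGFA were not among the 18 genes with a match. A match describes the window and does not show that a factor bound there.

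Matrix and adhesion genes held several of the calls. Of 22 bright collagen and extracellular matrix genes, 14 were evenly higher (63.6%) and 1 lower (4.55%), 7 were at least 1.2-fold higher (31.8%) and 0 lower, and the median was 0.16. CSPG4, the melanoma chondroitin sulfate proteoglycan, was the 1 call, with 3439 and 3591 against 2167 and 2306 (0.65; 0.58 to 0.73). COL12A1, a fibril-associated collagen, was 0.49, resting on 1 high siCTR array (1084 and 672 against 559 and 655). COL6A2, a chain of collagen VI, had 1536 and 1488 against 1088 and 1093 (0.47). AGRN, a basement membrane proteoglycan, was 0.42. COL6A1, another collagen VI chain, was 0.26 and the small proteoglycan BGN 0.26 (uncertain probe set). COL1A2, POSTN and FAP, the 3 bright fibroblast markers, were all evenly higher (0.27, 0.15 and 0.07). The summed signal of the 12 fibroblast markers was 22283 and 23898 in siCTR against 20013 and 19805 in NO, 5 of the 12 were at or below the median signal on all 4 arrays, and their part in the matrix differences was not tested.

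Of 21 bright integrin and focal adhesion genes, 8 were evenly higher (38.1%) and 4 lower (19.0%), close to the shares of all bright genes, and the median was 0.03. Of the 21, 4 were called higher and 0 lower, beside 0.944% and 0.906% of all bright genes. After ITGA5, PXN, the adaptor paxillin, had 1161 and 1427 against 786 and 759.8 (0.73; 0.56 to 0.90), and 0.58 without the second siCTR array, at the edge of a call. ITGA3, a laminin receptor chain, had 782 and 769 against 506 and 459.6 (0.68); all its probe sets are marked as shared, so it had no value without them. ITGA9, a tenascin receptor chain, had 2969.6 and 3009 against 1916 and 1875 (0.66), but 0.30 as the mean over its probe sets. In each the arrays were clear of each other, as a call requires. ITGA6, another laminin receptor chain, was lower with 4652 and 4946 against 6682 and 7431 (-0.55), although its other bright probe set did not share that sign. The beta chain ITGB1, the partner of most of these alpha chains, differed by only -0.03.

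Among 19 bright epithelial-mesenchymal and migration genes, 12 were evenly higher (63.2%) and 5 lower (26.3%), with a median of 0.09 that turned to -0.02 without shared probe sets. PLAUR, the urokinase receptor, had 1265 and 1236 against 802 and 800.3 (0.64; 0.62 to 0.66), but without shared probe sets the value was -0.18. AXL, a receptor tyrosine kinase of invasive melanoma, had 2032 and 2085 against 1476 and 1207 (0.62), and 0.48 without the second NO array, which ends its call. TGFBI, a matrix protein, was 0.32 and the membrane protease MMP14 0.31. CD44, the hyaluronan receptor, was -0.28 and ZEB2 -0.25.

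**Figure D5:**
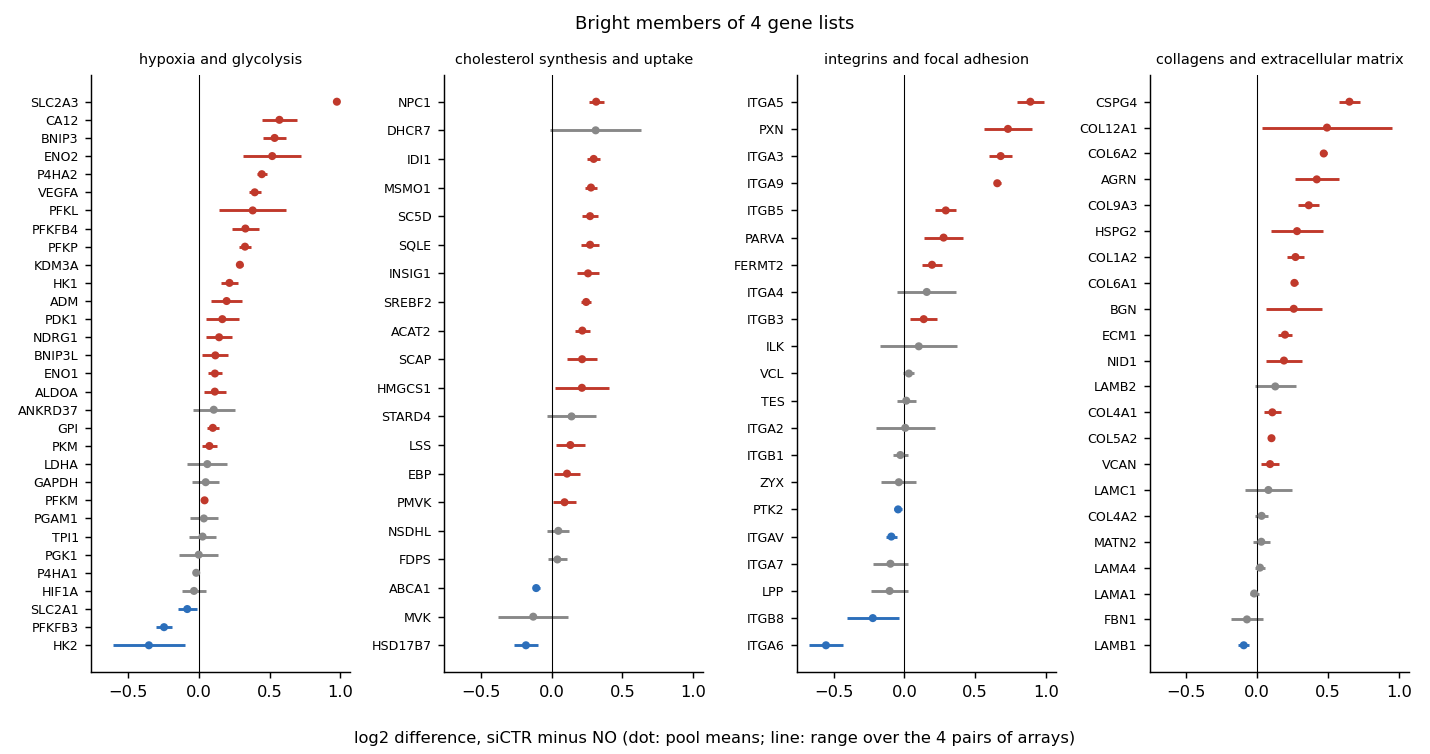
Log2 difference, siCTR minus NO, of every bright member of 4 gene lists; dots are pool means and lines the range over the 4 pairs of arrays, red where all pairs are above 0, blue where all are below and grey where arrays overlap. Of the cholesterol genes 13 are red, none above 0.31 (NPC1), whereas the integrin list spreads from -0.55 (ITGA6) to 0.89 (ITGA5).

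Pigment genes showed no common direction. Of 21 bright members, 7 were evenly higher and 8 lower (33.3% and 38.1%), and the median was -0.04. TRPM1 was the 1 call. CDK2, whose gene neighbours PMEL and is regulated by MITF, had 2195 and 2225 against 1741 and 1636 (0.39), and the lineage factors PAX3 and SOX10 were 0.25 and 0.23. MITF, the master regulator, was -0.13, and its targets TYR, MLANA and TYRP1 were 0.10, -0.19 and -0.18. These differences were all small beside that of TRPM1, and they had both signs.

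In 22 bright genes of MAPK output, 12 were evenly higher (54.5%) and 4 lower (18.2%), with a median of 0.09. DUSP5, a nuclear ERK phosphatase, was the 1 call with 652 and 755 against 444 and 457 (0.63), was bright in siCTR only, and fell short of a call without the second siCTR array (0.53). JUN was -0.44 (uncertain probe set), FOSL1 0.27 and DUSP10 -0.27, so AP-1 members differed in sign. Of 17 bright TGF-beta pathway genes, 8 were evenly higher (47.1%) and 5 lower (29.4%), with a median of 0.10 and 0 calls. SKI, a repressor of SMADs, was 0.54, the receptor TGFBR2 had 6623 and 6919.6 against 5189.6 and 4876 (0.43), the signal transducer SMAD3 was 0.42, and THBS1, an activator of the ligand, was -0.43 with 1428 and 1449.7 against 1874 and 1997. Of 20 bright actin and SRF genes, 6 were evenly higher (30% beside 36.1% of all bright genes) and 10 lower (50% beside 24.2%), with a median of -0.06 and 0 calls. EZR, which ties actin to the membrane, was -0.41, the calponins CNN3 and CNN2 (the latter on an uncertain probe set) were -0.26 and -0.24, and the actinin ACTN4 was 0.39.

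By their medians, replication genes were close to level between the controls and mitosis genes lay a little higher in siCTR. Of 28 bright replication and G1/S genes, 9 were evenly higher (32.1%) and 8 lower (28.6%), with a median of 0.03 and 0 calls. At 1.2-fold or more, 1 was higher (3.57% beside 10.3% of all bright genes) and 4 lower (14.3% beside 7.38%). ORC6 (-0.49; uncertain probe set), the helicase subunit MCM4 (-0.48) and the cyclin CCNE2 (-0.40) were lower, and RRM2, a ribonucleotide reductase subunit, higher (0.41), although its other bright probe set did not share that sign. Of 32 bright G2/M and mitosis genes, 16 were evenly higher (50% beside 36.1% of all bright genes) and 5 lower (15.6% beside 24.2%). Their median was 0.10, with 0 calls. At 1.2-fold or more, 2 were higher (6.25% beside 10.3% of all bright genes) and 0 lower (beside 7.38%). CDK1, the mitotic kinase, had 8877 and 9489 against 7422 and 5719 (0.49), AURKB was 0.30, AURKA 0.26 and the checkpoint protein MAD2L1 -0.24. Only 5 histone genes were bright, 3 evenly higher and 0 lower. Their median was 0.15 and turned below 0 under 4 other settings. H1-10 (0.23), H2AZ2 (0.21), H2AX (0.15) and H2BC12 (-0.12; overlapping) had the largest differences.

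Housekeeping machines differed little. Among 25 bright cytosolic ribosomal proteins, 6 were evenly higher and 2 lower, 0 reached 1.2-fold, and RPL18 (0.16), RPS14 (0.12), RPS18 (0.10; overlapping) and RPS19 (0.09; overlapping) were furthest from 0. Of 33 bright mitochondrial ribosomal proteins, 11 were evenly higher and 7 lower (median 0.03), from MRPS7 (0.37) and MRPS14 (0.33) to MRPL19 (-0.31), with MRPS22 (uncertain probe set) at 0.26. Of 37 bright oxidative phosphorylation genes, 10 were higher and 9 lower (median 0.01), with SDHA (0.33) and SDHC (0.32), both on uncertain probe sets, above 0 and NDUFA9 (-0.31) and NDUFA5 (-0.22) below. Aminoacyl-tRNA synthetases were 8 of 18 evenly higher and 2 lower (median 0.07), led by CARS1 (0.35), GARS1 (0.32), WARS1 (0.30) and SARS1 (0.25). None of these 4 lists held a call.

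Of 29 bright proteasome subunits, 19 were evenly higher (65.5% beside 36.1% of all bright genes) and 4 lower (13.8% beside 24.2%), but by little, the median being 0.07 and 3 reaching 1.2-fold. PSMD1, a scaffold of the regulatory particle, had 4142 and 4369 against 3070.3 and 3000.3 (0.49), and PSMA5, PSMD11 and PSMD6 were 0.30, 0.28 and 0.24. Of 33 bright splicing factors, 8 were evenly higher (24.2%) and 13 lower (39.4%), 6 of them by at least 1.2-fold (18.2% beside 7.38% of all bright genes), and the median was -0.02. CLK1, a kinase of SR proteins, was -0.56 but rested on 1 NO array (810.3 and 733 against 1603 and 811). SRSF11 had 7916 and 7819.8 against 10840 and 11426 (-0.50), HNRNPL was -0.42, and HNRNPA2B1, an abundant RNA-binding protein, had 17757 and 18017 against 22789.8 and 24030.3 (-0.39), with both of its other bright probe sets evenly lower.

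A further 3 lists were drawn up after the differences had been seen, and the other lists with earlier results of these data known. The counts of all lists therefore only describe. Metallothioneins, small proteins that bind zinc and copper, had 7 bright members, 6 of them evenly higher and 4 called. All 7 probe sets are shared between family members, so the genes cannot be told apart on these arrays and each is uncertain. MT1E had 4435 and 4618 against 2402 and 2619 (0.85; 0.76 to 0.94), and MT1X had 8318 and 8231 against 5172 and 4684 (0.75; 0.67 to 0.83), although a further probe set of MT1X differed by -0.07. MT1HL1 had 8009 and 6177 against 4161 and 3812 (0.82) and MT1F 2438 and 2179 against 1491 and 1406 (0.67). MT2A, the main form in most cells, had 14499.7 and 13932 against 9699.8 and 9982 (0.53), MT1G was 0.48 and MT1H -0.03 with overlap. MT1E, MT1F and MT2A had 3128 and 2981, 1035 and 939, and 8706 and 8607 on the siPIR arrays, so the last 2 were below NO there.

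Of 17 bright zinc transporters and MTF1, 8 were evenly higher (47.1%) and 4 lower (23.5%), with a median of 0.15. MTF1, the zinc-sensing factor that switches on metallothioneins, had 522 and 449.6 against 268 and 340.5 (0.67). It was bright in siCTR only and missed the size of a call without the first siCTR array (0.57) or the first NO array (0.50). SLC30A1, a zinc exporter that MTF1 controls, had 5905 and 5046 against 4932 and 4011 (0.30), and the importers SLC39A10 and SLC39A6 were -0.35 and 0.29. Among 7 bright transcripts of the mitochondrial genome, 2 were evenly higher and 2 lower. COX3 and ND6 were lower (-1.11 and -0.58), while ND2 and COX2 (the latter on an uncertain probe set) were 0.11 and 0.09 and COX1, ATP6 and ND4 overlapped between the pools. ND6 is read from the opposite strand. ATP6 was -0.09 on its strongest probe set, but its other bright probe set was evenly lower, with 532 and 547.8 against 984.6 and 926 (-0.82).

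Of the 147 called genes, 43 are ranked or belong to a list. The other 47 called higher differed by 0.59 to 0.79 (median 0.64) and the other 57 called lower by -0.91 to -0.59 (median -0.67). The median difference moved with signal level. It was -0.18 for genes with a higher pool mean of 70.2 to 150 signal units, -0.05 from there to 458.4, and 0.02 to 0.05 in the 3 bands of bright genes.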

How the data were processed

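Total RNA was profiled on 6 HG-U133 Plus 2 arrays, of which the 4 of the siCTR and NO groups were compared. The deposited values hold 1 linear intensity per probe set and array, computed by GCOS, the Affymetrix array software, per the submitters' processing notes, which give no version. The mean of each array after trimming 2% at each end was 500.07, the pattern left by scaling to one target. All 6 columns were matched to samples. The platform annotation names 1 gene for 41097 of 54675 probe sets and several for 1801, and it does not list 11777, of which 62 are controls. Through Entrez identifiers 99.9% matched RefSeq (GRCh38.p14) and 0 symbols changed. Each gene took its probe set with the highest mean over the 6 arrays.

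The scale is log2(value + 5.4), with the 10th percentile as pseudocount, so differences of low genes are understated. Arrays of a pool were averaged on this scale, and the range over the 4 array pairs was kept. Calls needed 1.5-fold and no overlap of arrays; the scripts were tested on simulated data. Named genes are PIR, the 12 most even higher and lower genes under 2-fold ranked by their closest array pair, up to 8 each way at 2-fold or more, and in each of 33 gene lists the 4 bright members with the largest difference and every called one; further members were named to show a list's spread. The members and lists were chosen with earlier results of these data known, and 3 lists, the 1.2-fold count and the other probe sets were added after the data were seen. The values of 1 ranked gene are not reported here. Genes on probe sets with the suffix _x_at are called uncertain. The number of arrays limits the precision. Alternatives changed the pseudocount, the filter, the probe sets, the scaling and the arrays used. Python 3.11.15 with numpy 2.4.6, pandas 2.3.3 and matplotlib 3.10.9 was used.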

Additional observations from a re-analysis of the deposited data

How the results depend on the processing

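No paired analysis was possible because the shared replicate numbers mark only repeat hybridisations of 1 labelled target, and the counts come from no test. Over 14 alternatives, 111 of 138 counts stayed within 1.5 times the main count, and 10 of the 147 called genes were called under all 14. Of the 147, 60 were called with each array left out. Differences of the 147 called genes changed sign in 21 of 1882 values. List medians changed sign in 43 of 426 values, spread over 17 of the 33 lists; those of lists in which over 50% of the bright members differed evenly in 1 direction did so in 8, given below. The cause of the changes listed here was not tested, with 2 exceptions that follow from the rules. Other filters and probe set rules keep other genes, and fewer arrays make evenness easier to meet.

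Without a filter on low values there were 1175 genes higher and 1720 lower at 1.5-fold, 458 and 669 of them under 2-fold and 717 and 1051 at 2-fold or more. At any size there were then 4646 and 4495 even differences, and 2377 and 2899 at 1.2-fold. Here 40.6% of the 1.5-fold calls were higher, against 51.0%. With the mean over the probe sets of a gene, 42 genes were higher at 1.5-fold (40 under 2-fold) and 58 lower (5 at 2-fold), with 419 higher at 1.2-fold and 1614 at any size. Of the main calls, 27 higher and 24 lower genes were shared, and 62 were no longer among the genes kept. Without probe sets marked _x_at or _s_at, 1832 were evenly higher and 1 at 2-fold. With arrays centred on the bright median, 1 gene was higher and 5 lower at 2-fold, and at 1.5-fold 53 were higher and 98 lower. The 2-fold higher count was 1 with 4 times the pseudocount and 0 for genes bright in both pools.

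With single arrays left out, the counts at 1.5-fold were 82 to 102 higher and 90 to 110 lower. Under 2-fold they were 80 to 99 and 84 to 104, and at 2-fold 2 to 3 and 5 to 7. Counts at any size were 3659 to 3847 and 2626 to 2745, and at 1.2-fold 888 to 1042 and 670 to 724. With an array left out, fewer array pairs must lie on 1 side, so counts at any size rise by the rule itself.

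The sign turned with the mean over probe sets for FAM20C (-0.42), FNIP2 (-0.36), GALNT2 (-0.16), HMGA2 (-0.19), IL27RA (-0.056), JARID2 (-0.00037), PCNX2 (-0.11), PHLPP2 (-0.27), RECK (-0.055), TMCC1 (-0.16), UBE2H (0.044) and XYLT2 (-0.47). Without _x_at and _s_at probe sets it turned for APH1B (0.10), F2R (0.0090), FAM149A (-0.23), GALNT2 (-1.26), JARID2 (-0.66), PBRM1 (0.042), PLAUR (-0.18), PPP2R2D (-0.11) and RBM3 (0.030). The histone median was -0.054 with genes bright in any of the 3 pools, -0.080 without the filter, -0.031 with the mean over probe sets and -0.12 without shared probe sets. Without the filter the NF-kB median was -0.047 and the fibroblast median -0.048. Without shared probe sets the endocytosis and the epithelial-mesenchymal medians were -0.015 and -0.016.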

Other observations

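Below the bright threshold, between 150 and 458.4 signal units in the higher pool, 2653 genes were measured. A gene entered this band through its higher pool alone, whichever that was. The median difference of the band was -0.05, and at 1.5-fold without overlap 2.49% of it was higher and 6.60% lower. At 2-fold or more without overlap of arrays, 9 of the 2653 were higher and 37 lower in siCTR. In 5 and 10 of these each pair of arrays was at least 2-fold apart. KLK1, a tissue kallikrein, had 65.3 and 64.4 in siCTR and 163 and 166 in NO (-1.28). SLC16A7, a monocarboxylate transporter, had 73 and 70.2 against 210.3 and 173 (-1.35). NECTIN1, an adhesion molecule of cell junctions, had 46.8 and 38.1 against 212 and 145 (-1.92). IRF5, a transcription factor of interferon signalling, had 8.4 and 63.2 against 167 and 146 (-2.39), with the siCTR duplicates far apart. Among the higher genes, the chemokine CXCL14 had 207 and 192 against 78 and 82.1 (1.26) and the muscle cadherin CDH15 153 and 172 against 63.3 and 71.1 (1.21). These genes were chosen after their values were seen. The siCTR values of the lower genes are mostly near or below the median of all values (70.2).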
